A study of Mus musculus with 15 samples.

Results

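The 69 genes described here are the protein-coding mouse genes whose symbols carry the names Ift, Bbs, Nphp, Dnah or Cfap followed by a number, out of 53700 genes measured in oocytes and 21929 protein-coding genes among them. They comprised 14 Ift, 8 Bbs, 3 Nphp, 15 Dnah and 29 Cfap genes. The rule that picks them uses names and no measured value, but it was set with earlier results of these data known. Another 2 symbols that fit the names, Dnah2os and Ift88os, were not protein-coding and were left out. RNA came from oocytes at the germinal vesicle stage, fully grown oocytes still held in meiotic prophase, with 15 oocytes in each library. The Padi6 line was on the FVB/N strain and gave 3 heterozygous (het) and 3 knockout (KO) replicates. The Tle6 line was on the C57BL/6J strain and gave 2 het and 4 KO replicates, of which het replicates 1 and 2 and KO replicate 4 were each deposited as technical libraries A and B. PADI6 and TLE6 are oocyte proteins needed for the cytoplasmic lattices, and both control groups are heterozygous by title and genotype label, although sample names in brackets in the titles read WT. The sources used here do not say how the alleles were made, how old the mice were or whether replicates came from separate animals, and the tests rest on the spread between these replicates, which may be technical.

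Cilia are microtubule-based projections that grow from a centriole. Cargo is carried along them by intraflagellar transport (IFT), in which the IFT-B complex works with kinesin towards the tip and the IFT-A complex works with cytoplasmic dynein back to the base. The BBSome, an assembly of Bbs proteins, carries membrane proteins in and out, and the nephrocystins (Nphp) act at the base. Dnah genes encode the heavy chains of axonemal dynein, the motors of motile cilia and sperm tails, and Cfap proteins are a mixed set of cilia and flagella associated proteins. Mouse oocytes lose their centrioles as they grow.

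Gene counts ranged from 30100177 to 74947533 per library, and the 69 genes took 0.1565 to 0.1989% of them. Values below are CPM, in which the gene counts of a library are expressed per 1000000 and scaled by TMM factors over the 12 biological replicates, unless a library is named, where they are plain CPM. Padi6 had 1590 to 1750 CPM in Padi6 het and 18.7 to 24.8 CPM in Padi6 KO oocytes, and Tle6 was at 429 to 457 CPM in Tle6 het and 61.1 to 97 CPM in Tle6 KO oocytes, as labelled. Of 16 oocyte markers, 15 were at 1 CPM or more. Foxj1, the transcription factor of multiciliated cells, was near 0, and 12 of 16 markers of such cells were under 1 CPM. The other 4 were Ccno, at 1542 CPM in the mean, and Epcam, Deup1 and Rsph1, at 3.05, 2.62 and 2.52 CPM. Blood markers were all under 1 CPM, with 3 of 11 at 0, and 12 of 20 granulosa cell markers were under 1 CPM.

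The technical libraries of Tle6 het replicate 2 stood apart. Among genes at 10 CPM or more, 29.1% (2162 of 7441) differed over 2-fold between its libraries A and B, against 0 of 7421 for het replicate 1 and 0 of 7677 for KO replicate 4. Of 33 cilium genes at that level, 5 differed over 2-fold between A and B, namely Cfap298, Cfap36, Ift122, Ift74 and Ift81. The Tle6 KO replicates also paired off: 0.642% of genes differed over 2-fold between replicate 1 and library A of replicate 4, and 0.693% between replicates 2 and 3, against 6.16 to 8.12% across these pairs. Results that rest on library B or A of het replicate 2 are given with and without it below.

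Transport genes had the higher median levels, and motor and axoneme genes the lower ones. On average over the replicates, 33 of the 69 genes were at 10 CPM or more, 20 were from 1 to 10 CPM and 16 were under 1 CPM. Per kb of exon, the median gene was at 5.32 CPM among Bbs genes, 5.09 among Ift genes, 0.615 among Dnah genes and 0.228 among Cfap genes. All 14 Ift genes were above 1 CPM, whereas 13 of 29 Cfap genes were below it. No gene of the 69 was without a count in every library. The filter on low counts left 59 genes tested in all 4 comparisons, and Cfap44, Cfap65, Cfap73 and Cfap74 were tested in none.

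**Figure D1:**
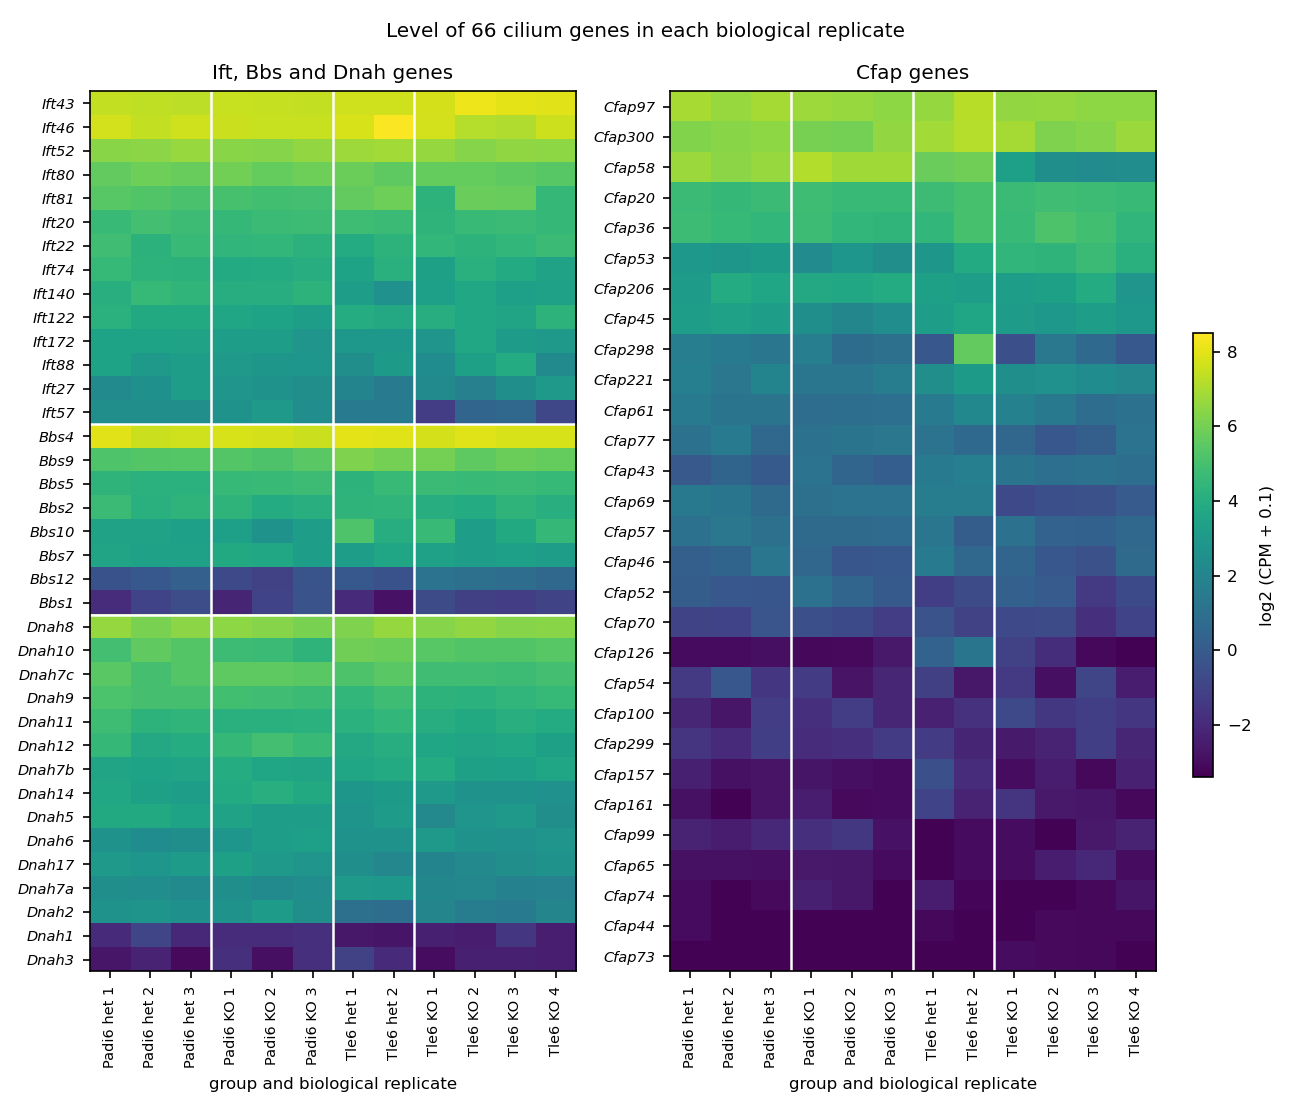
Level of the 66 Ift, Bbs, Dnah and Cfap genes (rows, by family and mean level) in the 12 biological replicates (columns, by group), as the log2 of CPM plus 0.1. Ift43, Ift46 and Bbs4 were high throughout, Cfap58 was lowest in the 4 Tle6 KO replicates, and Cfap298 was high in Tle6 het replicate 2 alone.

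Ift43, a subunit of IFT-A, had the highest level per length of all, at 123 CPM per kb, above 98.3% of protein-coding genes. Its replicates ranged from 158 to 183 CPM in the Padi6 line and from 197 to 295 CPM in the Tle6 line. Ift52 followed among the Ift genes with 33.2 CPM per kb, Ift46 with 30.7 and Ift20 with 16.7, all subunits of IFT-B. The other IFT-A genes of the set were lower, with Ift140 at 1.71 and Ift122 at 1.37 CPM per kb, so subunits of 1 complex differed widely in RNA level.

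Bbs4, which encodes a BBSome subunit, was at 36.6 CPM per kb, with replicates from 188 to 258 CPM that overlapped between het and KO in both lines. The next BBSome genes were Bbs5 at 9.5 and Bbs9 at 7.9 CPM per kb. Bbs1, also a BBSome subunit, was at 0.345 CPM in the mean, the lowest of the Bbs genes. Bbs10 and Bbs12, chaperonin-like proteins that help the BBSome assemble, differed in level: Bbs10 was at 15.1 CPM in the mean, and Bbs12 lay between 0.374 and 2.08 CPM in all replicates. Bbs4 shares exon sequence on the opposite strand with Adpgk, and the sources used here do not give the strand setting of the counting.

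Among the motors, Dnah8, a heavy chain of sperm tails, had the highest level per length, at 3.1 CPM per kb, followed by Dnah7c at 2.96 and Dnah10 at 2.45, both inner-arm heavy chains. Dnah8 replicates ran from 68.1 to 98.1 CPM, with overlap between all groups. Of the 15 Dnah genes, 7 were at 10 CPM or more and 2, Dnah1 and Dnah3, were under 1 CPM. Dnah7a, Dnah7b and Dnah7c shared 40.3, 48.4 and 48.5% of their 50-base stretches with another transcript, mainly with each other, so reads that align to several copies were lost to them and their levels are uncertain.

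Cfap300 and Cfap97 led the Cfap genes with 58.5 and 20.3 CPM per kb. Cfap300 acts in the assembly of dynein arms. Cfap58, a coiled-coil protein of the sperm tail, came next with 18.9 CPM per kb. Nphp4, which acts at the ciliary base, was at 1.8 CPM per kb.

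**Figure D2:**
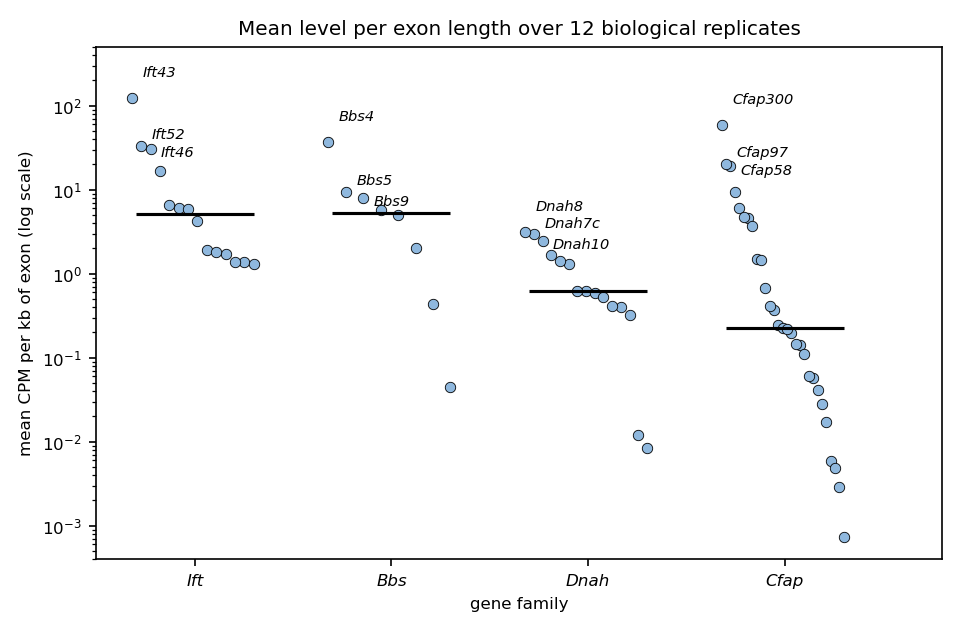
Mean level per kb of exon for each of the 66 Ift, Bbs, Dnah and Cfap genes over 12 biological replicates, on a log scale and by family, with bars at the family medians and the 3 highest genes of each family named. Ift43 lies at 123 CPM per kb, and the Cfap family spans the widest range.

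The first comparison asks what differs in oocytes without PADI6. Of 60 cilium genes tested in the Padi6 line, 1 was lower in KO than in het oocytes, Cfap45, and 0 were higher by edgeR's quasi-likelihood test at an adjusted p under 0.05. Over all 18228 genes tested, 1.69% were called higher and 0.724% lower. An unadjusted edgeR p under 0.05 was reached by 15 of the 60 and by 3399 of all 18228 genes tested. DESeq2 called 7 cilium genes, of which 4 were higher, and 1315 of 17636 genes in all. Fold changes were small: the median log2 change of the 60 was -0.08, against -0.01 over all genes, and 36 of 60 (60%) were negative, against 50.8% of all genes.

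Cfap45, a protein inside the axonemal microtubules, had 9.69, 10.4 and 9.21 CPM in Padi6 het replicates 1 to 3 and 5.7, 4.08 and 5.23 CPM in the 3 KO replicates. The groups did not overlap. The log2 change was -0.97 ± 0.18 (SE), with an edgeR adjusted p of 0.0247. The call was lost, at adjusted p values up to 0.0985, when the spread was shared by both lines and when het replicate 1, 2 or 3 or KO replicate 2 or 3 was left out, while the log2 change stayed between -1.07 and -0.84. In the Tle6 line Cfap45 was at 9.31 and 12.2 CPM in het and 7.61 to 9.6 CPM in KO oocytes, a log2 change of -0.31 with an edgeR adjusted p of 0.519. The exons of Cfap45 overlap those of 4933439K11Rik on the other strand. Each library pools 15 oocytes, so less of this RNA in every oocyte and less in only some of them cannot be told apart.

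Dnah10 came next by p in this line. It was at 30.9, 48.4 and 39.9 CPM in het and 27.3, 26 and 20.4 CPM in KO replicates, a log2 change of -0.70 ± 0.18 (SE) with an edgeR adjusted p of 0.0739. All KO values lay below all het values, yet the gene did not pass the threshold; it did with a replicate block (adjusted p 0.0437), without a filter, with DESeq2 and without Padi6 het replicate 1. Of the other large values in this line, Cfap54 had a log2 change of -1.43 at levels under 1 CPM, Cfap52 one of 0.73 and Bbs12 one of -0.72, and none passed.

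Transport genes as a group showed no call in the Padi6 line. Among 14 Ift genes the median log2 change was -0.19, with 11 negative and a range from -0.47 (Ift122) to 0.23 (Ift57). Among 8 Bbs genes, 4 were negative and the median was -0.02. Bbs5 had the highest value, 0.40, from 18.6 to 20.4 CPM in het and 23.8 to 26.8 CPM in KO oocytes, with an edgeR adjusted p of 0.108. The 14 tested Dnah genes ranged from -0.70 to 0.63, with 6 negative. Inner-arm heavy chains lay at both ends, with Dnah10 at -0.70 and Dnah6 at 0.63. Outer-arm Dnah5 and Dnah11 had negative values of -0.43 and -0.33, and none of these 4 was called.

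The second comparison asks the same of oocytes without TLE6. Cfap58 and Cfap69 were lower in Tle6 KO than in het oocytes. They were 2 of 62 cilium genes tested, and 0 were higher, against 0.587% higher and 1.04% lower over all 20276 genes tested with edgeR. An unadjusted edgeR p under 0.05 was reached by 15 of the 62 and by 3852 of all 20276 genes tested. DESeq2 called 6 cilium genes, of which 2 were higher, and 1724 of 21451 genes in all. The median log2 change of the 62 was -0.25 against 0.06 over all genes, and 42 of 62 (67.7%) were negative against 45.9% of all genes. Scaling by total counts moved the median of all genes to 0.22 and that of the cilium genes to -0.09.

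**Figure D3:**
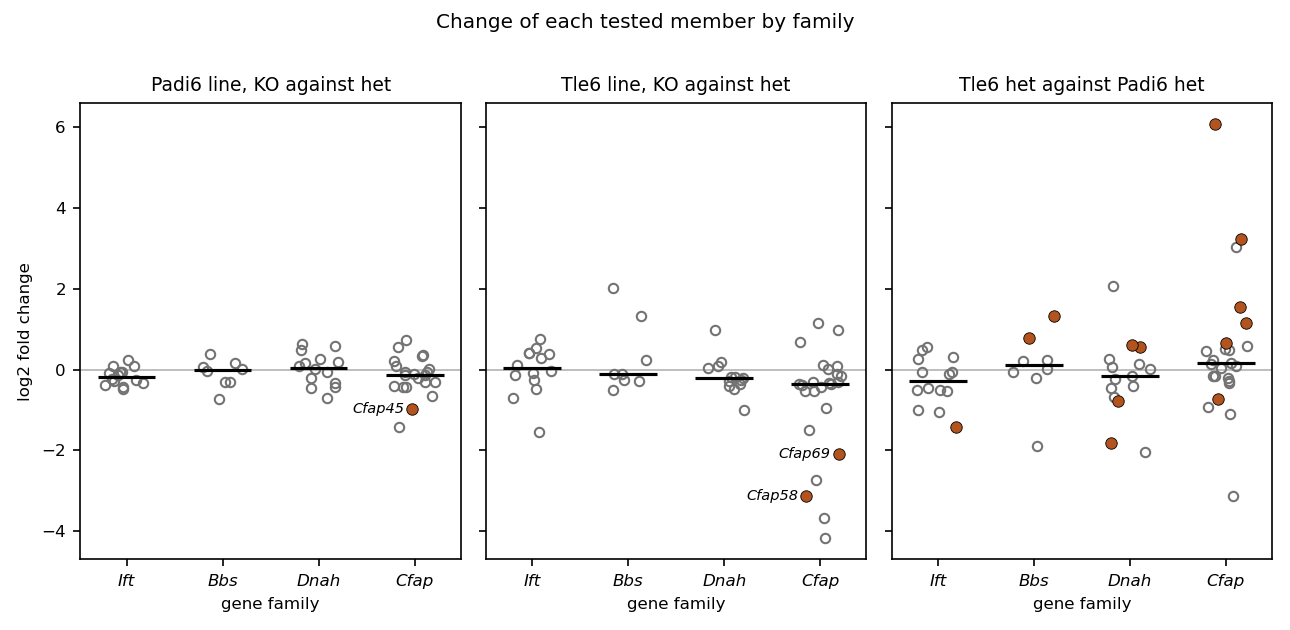
Log2 fold change of each tested Ift, Bbs, Dnah and Cfap gene by family in the Padi6 line, the Tle6 line and between the het groups. Filled points passed an edgeR adjusted p of 0.05, open points did not, and bars are family medians; Cfap45, Cfap58 and Cfap69 are the called genes of the 2 KO comparisons.

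Cfap58 was at 55.5 and 60.8 CPM in the 2 Tle6 het replicates and at 9.79, 5.75, 4.99 and 5.37 CPM in the 4 KO replicates. It had 104, 84.9 and 100.1 CPM in Padi6 het and 141, 112 and 112 CPM in Padi6 KO oocytes, so the Tle6 KO replicates lay below every other sample. The log2 change in the Tle6 line was -3.13 ± 0.28 (SE), with an edgeR adjusted p of 0.001857, and it stayed between -3.41 and -2.92 and past the threshold in all 16 alternatives run. By library, plain CPM were 49 and 48.3 in A and B of het replicate 1 and 74.8 and 38.7 in A and B of het replicate 2, against 5.02 to 9.2 in the 5 KO libraries. Without library B of het replicate 2 the log2 change was -3.32, and without library A it was -3.03. Cfap58 lies on chromosome 19, no exon of another GENCODE M21 gene overlaps it, and none of its 50-base stretches occurs in another gene's transcript. In the Padi6 line its log2 change was 0.34, with an edgeR adjusted p of 0.162.

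Cfap69, a protein of sperm tails and olfactory cilia on chromosome 5, was at 2.98 and 2.93 CPM in Tle6 het and at 0.491, 0.603, 0.642 and 0.915 CPM in KO replicates. The Padi6 line lay between 1.54 and 2.55 CPM in both groups, so here too the Tle6 KO replicates were the lowest of all. Its log2 change was -2.10 ± 0.36 (SE), with an edgeR adjusted p of 0.0312. The call was lost, at adjusted p values from 0.0523 to 0.183, when library B of het replicate 2, any 1 het replicate or KO replicate 1, 2 or 3 was left out, with library A alone, and with a replicate block, while the log2 change stayed between -2.40 and -1.92. Cfap69 had 349 counts in all Padi6 het, 521 in all Tle6 het and 177 in all Tle6 KO libraries.

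**Figure D4:**
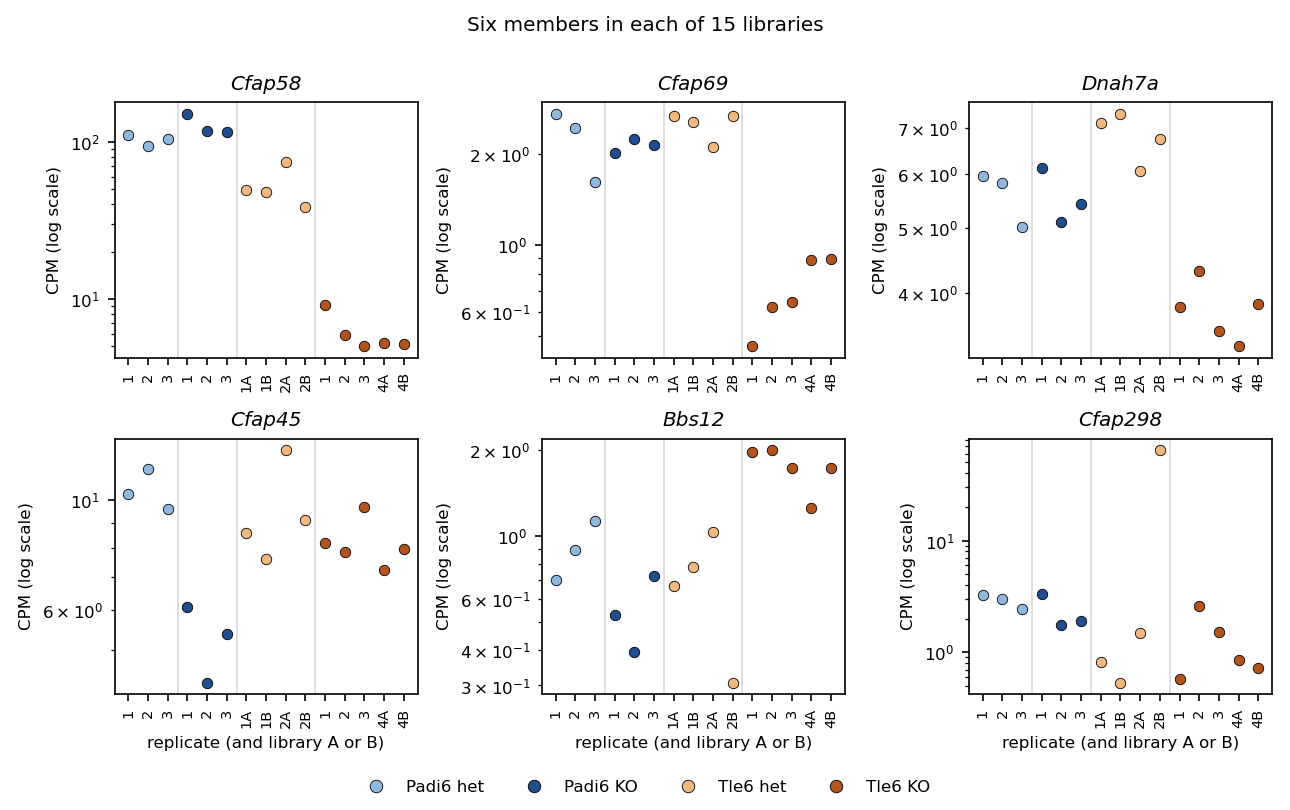
Plain CPM of 6 genes in each of the 15 libraries, on log scales that differ between panels and do not start at 0, with colours for the 4 groups and A or B for technical libraries. Cfap58 and Cfap69 are lowest in the 5 Tle6 KO libraries, Cfap45 is lowest in the 3 Padi6 KO libraries, and Cfap298 is high in library B of Tle6 het replicate 2 alone.

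Larger fitted changes in the Tle6 line did not pass the test. Cfap298, which acts in dynein arm assembly, had the largest, -4.17, with an edgeR adjusted p of 0.0963. It was at 0.819 and 0.535 plain CPM in libraries A and B of het replicate 1, at 1.5 in A and 64.2 in B of het replicate 2, and at 0.571 to 2.58 in the KO libraries. The value came from 1 library: without library B of het replicate 2 the log2 change was 0.28. Cfap298 shared 41.7% of its 50-base stretches with other transcripts, mainly Gm49727, which overlaps it on the opposite strand. Cfap126, a protein that positions basal bodies, was at 1.18 and 2.24 CPM in Tle6 het and at 0.374, 0.179, 0.0137 and 0 CPM in KO replicates, a log2 change of -3.67 with an edgeR adjusted p of 0.123. Cfap157 was under 1 CPM in every replicate and had a log2 change of -2.72, with an edgeR adjusted p of 0.138.

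The transport genes were split in the Tle6 line. Of 14 Ift genes, 7 had positive and 7 negative log2 changes, the median was 0.03 and none was called. The lowest was Ift57 of IFT-B, at 2.61 and 2.75 CPM in het and 0.327 to 1.46 CPM in KO replicates, with a log2 change of -1.55 ± 0.57 (SE) and an edgeR adjusted p of 0.195. Ift46 had -0.69, from 221 and 344 CPM in het to 135 to 204 CPM in KO oocytes, and Ift27 had the highest value, 0.75. Among Bbs genes, Bbs1 had the largest value, 2.01 ± 0.69 (SE), from 0.165 and 0.0409 CPM in het to 0.328 to 0.514 CPM in KO replicates without overlap, at an edgeR adjusted p of 0.169. Bbs12 had 1.32, from 0.811 and 0.665 CPM in het to 1.46 to 2.08 CPM in KO replicates without overlap, at an edgeR adjusted p of 0.11, and was called by DESeq2 and when both lines shared 1 estimate of the spread. Nphp4 had a log2 change of -1.04, with an edgeR adjusted p of 0.172. Dnah7a was at 8.22 and 7.71 CPM in het and 3.5 to 4.17 CPM in KO replicates, a log2 change of -1.01 with an edgeR adjusted p of 0.0753.

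Whether the effect of the knockout differed between the lines was tested over all 12 replicates. Cfap58, Cfap69 and Dnah7a had a lower and Bbs12 a higher KO effect in the Tle6 line than in the Padi6 line, 4 of 64 cilium genes tested, against 3.01% of all 21392 genes called lower and 1.31% higher by edgeR. For Cfap58 the difference was -3.51 ± 0.32 (SE) in log2, with an edgeR adjusted p of 6.5e-05, and the call held in all 20 alternatives. For Cfap69 it was -2.09, with an edgeR adjusted p of 0.0157, and it was lost in 3 of 20 alternatives, without library B of Tle6 het replicate 2, with library A alone and without Padi6 het replicate 3. Bbs12 had a difference of 1.99, with an edgeR adjusted p of 0.0387, and was lost in 11 of 20 alternatives, at adjusted p values up to 0.139: without a filter, without library B of Tle6 het replicate 2 or with library A alone, and without Padi6 het replicate 2 or 3, Padi6 KO replicate 1 or 2, either Tle6 het replicate, or Tle6 KO replicate 2 or 3. Dnah7a had one of -1.07, with an edgeR adjusted p of 0.0406, and was lost in 15 of 20, at adjusted p values up to 0.166, among them every omission of a replicate other than Tle6 KO replicate 1. Bbs12 shares exon sequence with Cetn4, and Dnah7a shares stretches with Dnah7b and Dnah7c, which had log2 changes of -0.18 and -0.40 in the Tle6 line, both uncalled.

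The third comparison sets the het oocytes of the lines side by side. Of 64 cilium genes tested, 9 were higher and 5 lower in Tle6 het than in Padi6 het oocytes, and over all genes tested by edgeR 15.9% were higher and 12.7% lower. Strain, mutated gene and collection of the samples all differ between these groups and cannot be told apart. Scaled by total counts, which moved the median of all genes from -0.03 to -0.34, the calls were 5 higher and 13 lower.

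Among the genes lower in Tle6 het oocytes were Dnah2, Ift140, Dnah5 and Cfap58. Dnah2, an inner-arm heavy chain, was at 6.24, 6.77 and 5.86 CPM in Padi6 het and 1.88 and 1.7 CPM in Tle6 het replicates, a log2 difference of -1.82 ± 0.28 (SE) with an edgeR adjusted p of 4.43e-04. Ift140, the IFT-A subunit, was at 16.9, 23.3 and 20.9 against 9.2 and 6.13 CPM, a log2 difference of -1.41 ± 0.24 (SE) with an edgeR adjusted p of 7.75e-04. Both genes kept their call in all 20 alternatives. Dnah5 and Cfap58 had log2 differences of -0.78 and -0.73 and lost their calls in 6 and 9 of 20 alternatives, among them those without library B of Tle6 het replicate 2.

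The genes higher in Tle6 het oocytes were Cfap126, Cfap298, Cfap43, Bbs10, Cfap221, Bbs9, Cfap300, Dnah7a and Dnah10. Cfap126 had 4 counts in all 3 Padi6 het libraries together and 312 in the Tle6 het libraries, a log2 difference of 6.07 ± 1.23 (SE) with an edgeR adjusted p of 0.002643. Cfap43, a protein of the sperm tail, was at 0.851, 1.25 and 0.876 CPM in Padi6 het and 2.62 and 3.18 CPM in Tle6 het oocytes, a log2 difference of 1.55 ± 0.34 (SE) with an edgeR adjusted p of 0.004081. Both kept their call in every alternative that tested them, 19 for Cfap126 and 20 for Cfap43. The difference of Cfap298 was 3.22 with library B of het replicate 2 and -1.27 without it. Bbs9 was at 37.2 to 40.9 against 72.5 and 63.7 CPM, a log2 difference of 0.79 with an edgeR adjusted p of 0.002991, and lost its call without library B of Tle6 het replicate 2 and with library A alone, where it came to 0.48. Bbs10 was at 10.8, 10.9 and 9.81 against 36.9 and 16 CPM, a log2 difference of 1.34 that was lost in 6 of 20 alternatives and came to 0.62 without Tle6 het replicate 1, and Cfap221, a protein of the central pair, had one of 1.14 that was lost in 1 of 20. Cfap300, Dnah7a and Dnah10 had log2 differences of 0.66, 0.61 and 0.56 and lost their calls in 7, 12 and 10 of 20 alternatives.

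Some cilium genes followed a split among the Tle6 libraries that crossed the genotypes. Ift81, a subunit of IFT-B, was at 82.6 plain CPM in library A of het replicate 2, 56 in KO replicate 2 and 52.9 in KO replicate 3, against 18.4 to 43.7 in the other 6 libraries. Ift88, also of IFT-B, was at 11.4, 10.6 and 14.9 in the same 3 libraries and at 4.35 to 4.89 in the rest. Bbs10 went the other way, with 9.92, 10 and 14.2 in these 3 libraries and 15.5 to 32.8 in the others. The summed CPM of 20 granulosa and cumulus cell markers was 673, 714 and 685 in these 3 libraries and 393 to 450 in the other 6, and 644 to 784 in the Padi6 line. That sum was mostly Serpine2, at 495 CPM in the mean, followed by Nr5a2 at 56.6 and Cyp19a1 at 37.8 CPM, and of the defining markers Fshr, Foxl2 and Amh were under 1 CPM. The markers of the list differed in whether they followed this split among the KO replicates. Gja1 was at 6.11 and 7.49 CPM in KO replicates 2 and 3 against 1.4 and 1.04 in 1 and 4, and Hsd17b1 at 4.12 and 3.63 against 1.78 and 1.26. Serpine2, Cyp11a1, Kitl, Fst, Wt1, Amhr2, Inha, Inhba and Ptgs2 were also higher in both KO replicates 2 and 3 than in 1 and 4. Has2 went the other way, with 1.27 and 1.76 against 2.15 and 3.02 CPM. Fshr did not follow the split, with 0.603 and 0.109 against 0.164 and 0.521 CPM. Nor did Cyp19a1, Nr5a2, Foxl2, Nr5a1, Amh, Ptx3 and Tnfaip6. In het replicates 1 and 2 Gja1 was at 1.115 and 1.003 CPM. The value of het replicate 2 adds libraries from both sides of the split, so it does not show whether Gja1 followed it there. The part of granulosa cell RNA in the levels of Ift81, Ift88 and Bbs10 was not tested. These 3 genes were picked out after their values were seen, and none was called between Tle6 KO and het, with log2 changes of -0.48, 0.38 and -0.52.

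**Figure D5:**
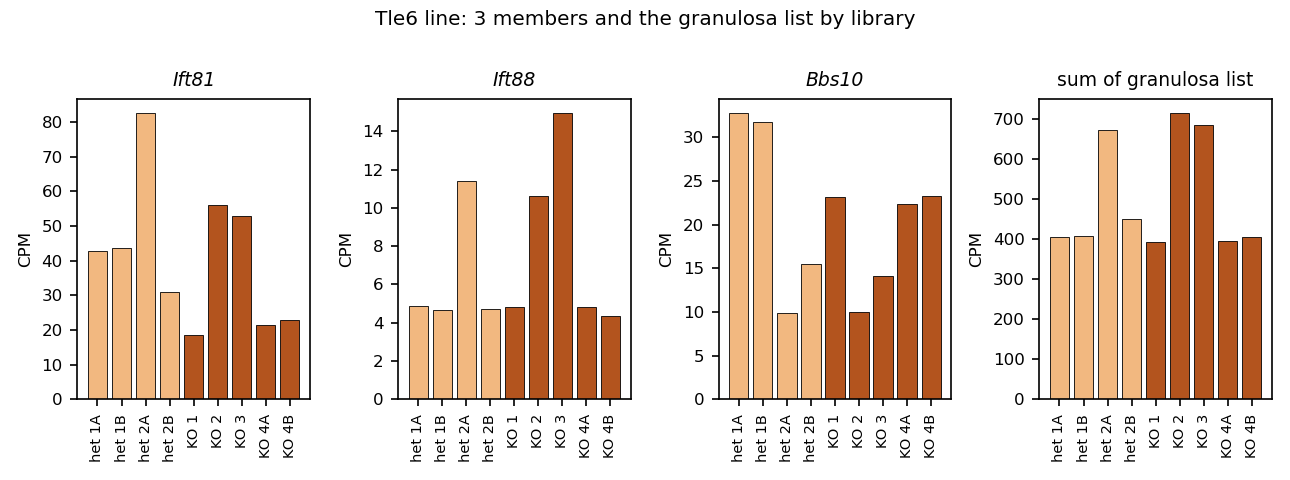
Plain CPM of Ift81, Ift88 and Bbs10 and summed CPM of the granulosa list in the 9 libraries of the Tle6 line, het in the lighter and KO in the darker colour. Library A of het replicate 2 and KO replicates 2 and 3 are high in Ift88 and the granulosa sum and low in Bbs10.

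Cilium genes named outside these families were read from a list of 160 genes, of which 139 were tested in each line. In the Padi6 line 4 were higher in KO oocytes and 0 lower, where all genes tested gave 1.69% higher and 0.724% lower. Ttc21b, an IFT-A subunit, was at 1.15, 0.811 and 1.13 CPM in het and 7.34, 8.18 and 5.83 CPM in KO replicates, a log2 change of 2.78 ± 0.23 (SE) with an edgeR adjusted p of 9.36e-04. Ahi1, a transition zone protein, was at 6.25 to 10.5 CPM in het and 37.1 to 47.2 CPM in KO replicates, a log2 change of 2.31 with an edgeR adjusted p of 9.7e-04. Both kept their calls in all 13 alternatives. Myb, a transcription factor of the multiciliated cell program, and Rsph3a, a radial spoke protein, had log2 changes of 2.85 and 0.66 and lost their calls in 2 and 5 of 13. No other IFT subunit passed the test in this line.

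In the Tle6 line 1 of the 139 was higher in KO and 0 lower, where all genes tested gave 0.587% higher and 1.04% lower. Stk36, a kinase needed for motile cilia, was at 15 and 12.1 CPM in het and at 202, 276, 271 and 221 CPM in KO replicates, a log2 change of 4.21 ± 0.25 (SE) with an edgeR adjusted p of 2.37e-04. The Padi6 line held 204 to 300.1 CPM of it in both groups, so the Tle6 het replicates stood apart from all other samples. The call held in all 16 alternatives. The difference between the lines passed the test for 3 of 142 genes on the higher and 7 on the lower side, where all genes tested gave 1.31% and 3.01%, led by Stk36 (4.30), Ttc21b (-3.04), Ahi1 (-2.46) and Drc1 (-1.86). Between the het groups 22 of 142 were higher and 22 lower in the Tle6 line, where all genes tested gave 15.9% and 12.7%, led by Stk36 at -4.23, Zmynd10 at -2.53 and Rsph9 at -2.43.

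RFX transcription factors bind the X-box, a motif of cilium gene promoters, and Rfx2 was at 88.7 to 140 CPM in the oocytes. Windows from 250 bases before to 50 bases after the gene start, from RefSeq on GRCm38.p6, were found for 56 of the 69 genes. The half-site GTTGCC, on either strand, was in 22 of the 56 (39.3%), against 14.3% of 17492 protein-coding genes. An X-box pair, GTTNCC and GGNAAC with up to 3 bases between, was in 3 (5.36%), Bbs7, Cfap298 and Ift57, against 0.886%. The letters CCAAT were in 44.6 against 42.3%, and CANNTG in 62.5 against 72.1%. The letters searched were chosen after looking at the windows, pairs that start with GTTGCC also count as half-sites, and a match is a description, not a bound site. Genes with the half-site had a median of 1.75 CPM per kb (n = 22) and those without it 1.36 (n = 34).

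The stretches below show the 3 windows with pairs, the half-site of Cfap58, and the bases before the start of Cfap69 and Cfap45, the other genes called in a knockout, with matches in capitals and each 5′ to 3′ along its gene. Cfap58 is at chr19:47937633-47937692 on the plus strand, with GTTGCC 59 bases before the start. Cfap298 is at chr16:90934884-90935057 on the minus strand, with pairs 188 and 69 bases before the start. Bbs7 is at chr3:36613471-36613530 on the minus strand and Ift57 at chr16:49699187-49699266 on the plus strand. Cfap69 is at chr5:5664233-5664292 on the minus strand and Cfap45 at chr1:172521070-172521129 on the plus strand, with none of these letters matched as a half-site or pair.
Cfap58: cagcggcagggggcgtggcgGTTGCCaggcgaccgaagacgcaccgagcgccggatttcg
Cfap298: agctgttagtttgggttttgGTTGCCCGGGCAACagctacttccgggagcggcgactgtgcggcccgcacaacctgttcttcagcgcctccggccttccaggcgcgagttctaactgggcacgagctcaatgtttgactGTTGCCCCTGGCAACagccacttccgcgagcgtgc
Bbs7: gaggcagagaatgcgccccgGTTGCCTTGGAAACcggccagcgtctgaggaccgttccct
Ift57: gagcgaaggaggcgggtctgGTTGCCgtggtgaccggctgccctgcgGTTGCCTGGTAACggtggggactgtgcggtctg
Cfap69: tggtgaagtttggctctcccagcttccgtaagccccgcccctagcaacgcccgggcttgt
Cfap45: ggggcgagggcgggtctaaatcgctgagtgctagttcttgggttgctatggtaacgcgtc
Of the genes called in a knockout, Cfap58 thus had the half-site in its window. Cfap69 and Cfap45 had no exact match to the half-site or the pair. The Cfap45 stretch holds gttgctatggtaac, in which ggtaac matches GGNAAC and gttgct differs from GTTNCC only in its last base. The Cfap69 stretch holds agcaac, which differs only in its first base from GGCAAC, the half-site on the other strand. Near matches were not counted in any gene, so the search does not show that Cfap45 or Cfap69 lacks such a site. Ift57 and Cfap298, with pairs, were not called in either line.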

How the data were processed

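Polyadenylated RNA from 15 oocytes per library was made into libraries with a QIAseq FX single cell kit, per the labels' protocols. The authors deposited raw read counts per gene for each library; bcl2fastq 2.20.0.422, cutadapt 2.8, STAR 2.7.8a, HTSeq 2.0.2 and mm39 are named in the submitters' processing notes. The sources used here do not give the annotation release or strand setting, so overlapping and near-identical genes are uncertain. Reads outside genes were 5.39 to 7.29% of a table, ambiguous reads 3.85 to 4.2% and reads with several alignments 12.09 to 14.51%; these and 92 spike-in rows stayed out. GENCODE M21 gave symbols for 52147 of 53700 identifiers, gene types and exon lengths.

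Libraries A and B of a replicate were added. edgeR 4.0.16 in R 4.3.3 tested the genes that filterByExpr kept (TMM, robust quasi-likelihood fit, two-sided). P-values were adjusted by Benjamini-Hochberg over the whole table and called under 0.05. The lines were fitted apart; the difference of the KO effects and the het contrast came from 1 fit over 12 replicates. The spread between replicates, not counting depth, limits most genes: edgeR's common coefficient of biological variation was 0.203 for Padi6 and 0.361 for Tle6. Scripts were tested on simulated data.

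Alternatives were other scalings, filters, DESeq2 1.42.0, a shared spread, a replicate block, technical libraries left out and each replicate left out. The text names genes called, the 3 highest per length in each family, the 5 largest changes per line, the 3 smallest p where fewer than 3 were called, IFT and BBSome genes, and up to 8 other called cilium genes per comparison. Members and lists were chosen with earlier results of these data known. Values of 2 of the 69 genes are not reported here.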

Additional observations from a re-analysis of the deposited data

Results flagged for a closer look

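Cfap58 in Tle6 KO replicate 1 was at 9.789 CPM, against 4.986 to 5.75 CPM in the other 3 KO replicates, a gap of 0.841 of the group's range, above Dixon's limit. This was the only such sample among 62 genes looked at in this group, and chance flags about 1 in 20 groups. The KO effect differed between the lines for 4 cilium genes by edgeR's test of the difference itself, with log2 values (Tle6 minus Padi6) of -3.513 for Cfap58, -2.089 for Cfap69, 1.993 for Bbs12 and -1.067 for Dnah7a.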

How the results depend on the processing

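Cfap58 kept its direction and its call in the Tle6 line and in the difference between the lines under every alternative run, and RLE scaling and a minimum of 1 CPM left each of the 4 counts of called cilium genes within 1.5 times. In the Padi6 line, 1 gene was called, and 4 without a filter, 7 with DESeq2, 0 with a spread shared by both lines, 3 with a replicate block, and 0 to 2 with 1 replicate left out. Over all genes tested there, 440 of 18228 were called, 1625 of 37602 without a filter and 1315 of 17636 with DESeq2. A shared spread gave 60 of 21392, a replicate block 859 of 18228, and fits with 1 replicate left out 61 to 258 genes. In the Tle6 line, 2 were called, and 6 without a filter, 6 with DESeq2, 11 with a shared spread, 1 with a replicate block, 1 without library B of het replicate 2, 1 with library A alone, and 1 to 2 with 1 KO replicate left out. Over all genes tested there, 329 of 20276 were called, 1447 of 38143 without a filter and 1724 of 21451 with DESeq2. Without library A of het replicate 2, 2 cilium genes and 316 of all 20007 genes tested were called. A shared spread gave 2061 of 21392 and a replicate block 57 of 20276. Without library B it was 120 of 19831, with library A alone 118 of 18967, and with 1 KO replicate left out 119 to 292 genes. For the difference, 4 were called, and 8 with DESeq2, 2 without that library B, 2 with library A alone and 1 to 4 with 1 replicate other than a Tle6 het left out. Over all genes tested there, 924 of 21392 were called and 1986 of 19989 with DESeq2. Without library A of Tle6 het replicate 2, 4 cilium genes and 1234 of all 21399 genes tested were called. Without that library B it was 382 of 21330, with library A alone 369 of 20773, and in the same fits without 1 replicate 405 to 1463 genes. Between the het groups, 14 were called, 20 without library A of Tle6 het replicate 2 and 8 without its library B. With library A alone it was 8, and with 1 replicate other than a Tle6 het left out 8 to 16. Over all genes tested there, 6107 of 21392 were called, and 6988 of 21399 without library A of Tle6 het replicate 2. Without that library B it was 3724 of 21330, with library A alone 3534 of 20773, and in the same fits without 1 replicate 4558 to 6283 genes. Where a Tle6 het replicate was left out, the lone sample was assumed to vary like the others. Fewer samples enter the fits without a replicate, whereas those without a technical library keep the number of samples and lose reads only; the cause of the shifts in those and in the other alternatives was not tested. Cfap298 reversed: in the Tle6 line -4.17 became 0.2751 without library B and 0.2041 with library A alone, and ranged from -5.166 to 0.7751 with 1 replicate left out (0.7751 without Tle6 het replicate 2); between the het groups 3.22 became -1.274 and -1.178, and ranged from -1.764 to 4.208 (-1.764 without Tle6 het replicate 2). Deviations of same-numbered replicates had low positive correlations (0.154, 0.0479 and 0.0939 in the Padi6 line and 0.0537 and 0.113 in the Tle6 line). These were not set against differently numbered replicates, so they do not show that pairing is absent. The numbers are not taken as pairs. Total count scaling moved the median log2 value of all genes from 0.02 to 0.24 for the difference.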

Other observations

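Cfap53 and Dnah2 did not pass the test in the Tle6 line, but all their Tle6 KO replicates lay above both Tle6 het replicates. How often this held over all genes was not counted, and both genes were chosen after their values were seen. Cfap53, a protein inside the axonemal microtubules that acts in left-right patterning, was at 7.31 and 14.8 CPM in Tle6 het and at 21.4, 20.2, 25.7 and 17.8 CPM in KO replicates, a log2 change of 0.99 ± 0.32 (SE) with an edgeR adjusted p of 0.149. In the Padi6 line it was at 7.26 to 8.51 CPM in het and 4.89 to 7.02 CPM in KO oocytes, and the difference between the lines was 1.37 with an edgeR adjusted p of 0.0529. Dnah2 was at 1.88 and 1.7 CPM in Tle6 het and at 2.85 to 3.93 CPM in Tle6 KO oocytes, all below the 5.47 to 9.08 CPM of the Padi6 line. Wdr35, an IFT-A subunit chosen in the same way, passed the test between the het groups (log2 difference -3.16 with an edgeR adjusted p of 0.002856): it was at 0.114 to 1.12 CPM in the Tle6 line and at 3.91 to 7.2 CPM in the Padi6 line.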
